A study of Mus musculus with 9 samples.

Results

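The 7 genes described here, H2-Aa, H2-Ab1, H2-Eb1, Cd74, H2-DMa, Ctss and Ciita, build, load or switch on the MHC class II molecules of the mouse. They were taken by gene symbol, as every probe set that the array annotation gives to that symbol alone, which yielded 15 probe sets of 45037 tested and 7 genes of 18193 with a probe set of their own. The choice by symbol set no threshold on a measured level, but the genes were listed with earlier results of these data known. H2-Aa had 4 probe sets, H2-Ab1 and Ciita 3 each, H2-DMa 2, and H2-Eb1, Cd74 and Ctss 1 each.

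The arrays compared organoids grown from yMaSCs, organoids grown from MaSCs and LD cells, with 3 samples a group, labelled A, B and C. LD cells are luminal differentiated cells of the mouse mammary gland, sorted as EpCAM-high, CD49f-low and CD61-negative after staining with a cocktail of lineage markers, and lysed fresh without culture. MaSCs stand for the cell fraction of the gland that is enriched in mammary stem cells, sorted as EpCAM-low, CD49f-high and CD61-positive. yMaSCs are LD cells that received lentiviruses for a doxycycline-inducible YAP and its transactivator rtTA and were converted by doxycycline. The organoids from yMaSCs and from MaSCs are also called yMaSC organoids and MaSC organoids here. Both kinds grew in Matrigel with EGF, bFGF, heparin, noggin and R-spondin1, and no longer received doxycycline. The mice were adult virgin C57BL/6J animals unless the methods say otherwise. The samples are labelled as biological replicas, and no source used here says whether they came from separate animals, so that the p-values measure the spread between these samples. All organoids were cultured and no LD sample was, so culture and cell origin cannot be told apart in a comparison of organoids with LD cells. Each sample is bulk RNA, in which fewer cells of a type and less RNA per cell cannot be told apart.

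MHC class II molecules are pairs of an alpha and a beta chain that carry peptides from endosomes to the cell surface, where CD4 T cells read them. H2-Aa and H2-Ab1 encode the chains of I-A, and H2-Eb1 encodes the beta chain of I-E. In the endoplasmic reticulum the invariant chain, Cd74, fills the peptide groove. In endosomes cathepsin S, Ctss, trims the invariant chain down to a short fragment, and H2-DM, whose alpha chain is H2-DMa, exchanges that fragment for antigen peptides. CIITA does not bind DNA itself but docks onto RFX, CREB and NF-Y proteins at the X and Y boxes of class II promoters. Dendritic cells, B cells and macrophages carry class II constitutively, and epithelial cells can acquire it under interferon gamma.

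The X and Y boxes could be looked up in the promoters of 4 of the 7 genes (5 promoters) and of 5 of 6 further class II genes, each from 250 bases before to 50 bases after the RefSeq start on build GRCm38.p6. The core letters searched on both strands, which were chosen with these sequences in view, were GCAAC for the X box and GATTGG for the Y box. An X core lying before a Y core on the same strand, with starts at most 40 bases apart, occurred in 186 of 32851 mouse promoters of that length (0.566%). It was found in H2-Aa and H2-Eb1, and among the further genes in H2-Oa, H2-Ob and H2-Eb2, with 29 to 32 bases from the start of the X core to that of the Y core. It was not in the windows of H2-DMa, Ctss, H2-DMb1 or H2-DMb2. An X core alone lay in the H2-DMa window from 34122582 and a Y core alone in that from 34125268. The windows of H2-DMb1 and H2-DMb2 each held a Y core alone. Those of H2-DMa and H2-DMb2 (from 34144999) began inside the genes, whose annotated starts are 34119693 and 34143229. Bases outside the windows were not searched, so a pair elsewhere in these genes would be missed. The 6 stretches of 100 bases show the pair where it was found and, for Ctss, a promoter without it. The capitals mark the X core, then the Y core, of the pair. In H2-Aa they also mark the palindrome TGACGTCA (a CRE, in 1.79% of promoters, between the boxes). In Ctss they mark the interferon response core GAAANNGAA (in 8.56% of promoters). A further Y core of H2-Eb1, read on the other strand and outside the pair, is left in lower case. Each core alone is common, at 35.2% of promoters for GCAAC and 16.1% for GATTGG.
H2-Aa, chr17:34287836-34287935, minus strand: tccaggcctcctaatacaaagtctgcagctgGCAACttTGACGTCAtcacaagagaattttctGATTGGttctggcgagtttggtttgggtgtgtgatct
H2-Eb1, chr17:34305744-34305843, plus strand: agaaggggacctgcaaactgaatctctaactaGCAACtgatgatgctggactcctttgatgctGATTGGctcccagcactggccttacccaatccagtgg
H2-Oa, chr17:34092272-34092371, plus strand: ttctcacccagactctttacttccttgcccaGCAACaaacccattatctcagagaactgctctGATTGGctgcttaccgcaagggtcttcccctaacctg
H2-Ob, chr17:34238785-34238884, plus strand: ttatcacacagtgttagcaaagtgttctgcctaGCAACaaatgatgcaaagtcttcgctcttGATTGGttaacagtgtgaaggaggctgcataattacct
H2-Eb2, chr17:34325511-34325610, plus strand: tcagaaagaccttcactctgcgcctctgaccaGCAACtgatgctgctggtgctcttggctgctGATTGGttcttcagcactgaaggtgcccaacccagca
Ctss, chr3:95526686-95526785, plus strand: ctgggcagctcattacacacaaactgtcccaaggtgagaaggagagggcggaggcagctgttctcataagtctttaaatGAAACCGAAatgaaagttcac
These letters describe the sequences and show neither binding nor activity. H2-Aa, H2-Eb1, H2-Oa, H2-Ob and Ctss all had lower signal in organoids than in LD cells, as had H2-DMa and H2-DMb2, whose windows held no pair, and H2-Eb2, which holds the same pair at the same spacing as H2-Eb1, did not pass the test.

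All values are log2 intensities, on which a step of 1 is a doubling of the signal. A probe set was called when its adjusted p in the limma fit over all 45037 probe sets was under 0.05. Against LD cells, 10 of the 15 probe sets were called lower and 0 higher in organoids from yMaSCs, where 15.0% of all probe sets were called lower. In organoids from MaSCs 10 of 15 were again called lower and 0 higher, against 15.4% of all probe sets called lower. By the probe set with the highest mean of each gene, 6 of 7 genes were called lower in both, against 14.0% of all genes in organoids from yMaSCs and 14.8% in organoids from MaSCs. Ciita was the gene not called. The median difference over the 15 probe sets was -3.24 in organoids from yMaSCs and -3.50 in organoids from MaSCs, beside medians of -0.04 in yMaSC organoids and -0.05 in MaSC organoids over all probe sets. All 6 organoid arrays lay under all 3 LD arrays in 11 of the 15 probe sets, an order that 17.9% of all probe sets showed. The 2 comparisons share the LD arrays and are therefore not independent of each other.

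**Figure D1:**
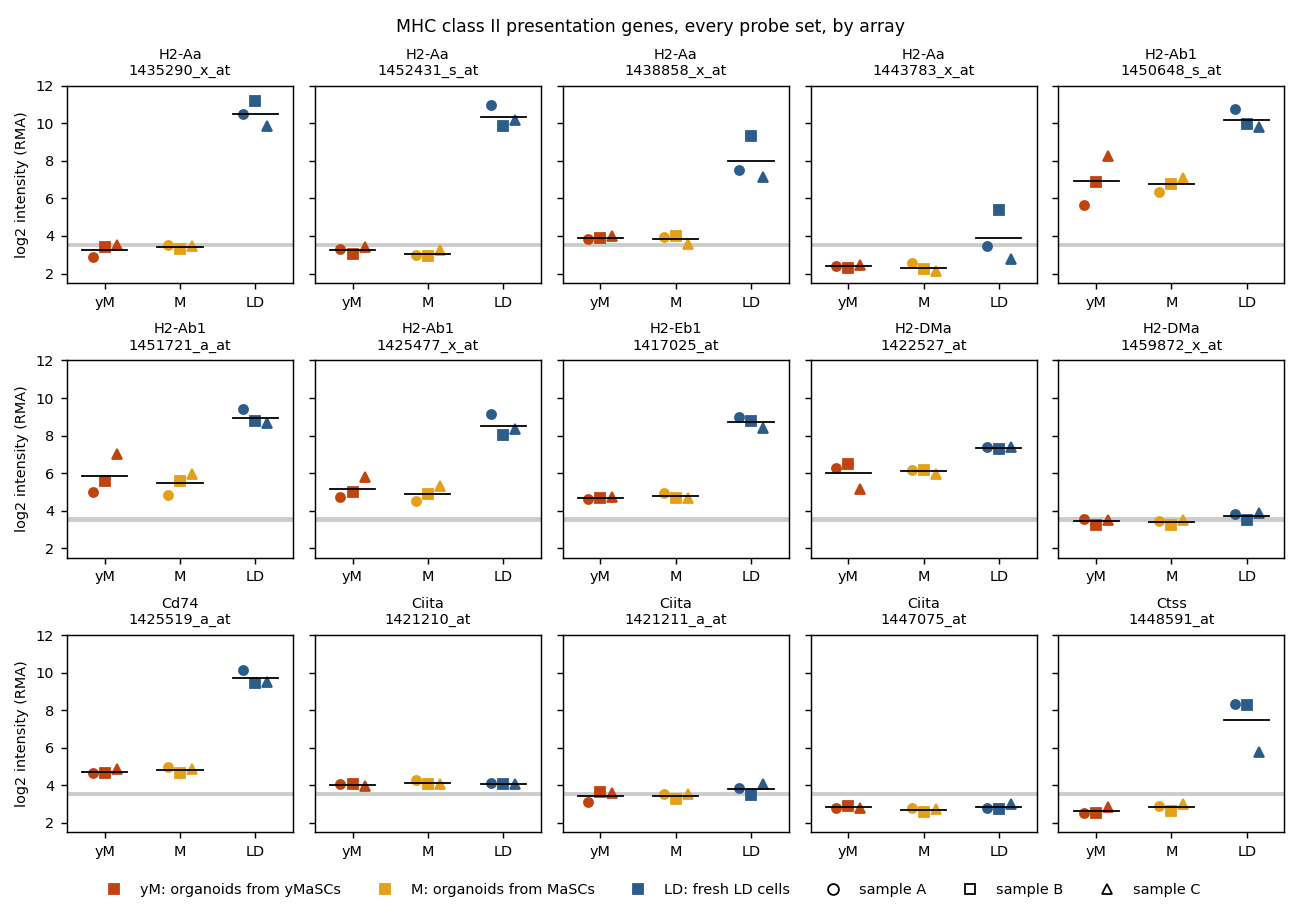
Log2 intensity of each of the 15 probe sets on the 9 arrays, with organoids from yMaSCs (yM) left, organoids from MaSCs (M) in the middle and fresh LD cells (LD) right; each symbol is 1 array, its shape gives the letter A, B or C, the black line is the group mean and the grey band spans the lower quartiles of the 9 arrays (3.47 to 3.59). LD cells stand far above both organoids for H2-Aa, H2-Ab1, H2-Eb1, Cd74 and Ctss, less far for H2-DMa 1422527_at, and level with them for the 3 Ciita probe sets.

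H2-Aa, the I-A alpha chain (chromosome 17, 34282744 to 34287823, GRCm38.p6, protein coding), showed the largest difference of the 7 genes. Probe set 1435290_x_at read 2.88, 3.42 and 3.50 in organoids from yMaSCs (A, B and C), 3.50, 3.28 and 3.44 in organoids from MaSCs, and 10.50, 11.21 and 9.86 in LD cells. The organoid arrays spanned 2.88 to 3.50, and 5 of the 6 were under the lower quartile of their own array, which lay between 3.47 and 3.59. The means were 3.27 ± 0.34 in organoids from yMaSCs, 3.41 ± 0.11 in organoids from MaSCs and 10.52 ± 0.68 in LD cells (SD, n = 3 each). The signal was 153-fold lower in organoids from yMaSCs than in LD cells (log2 difference -7.26, 95% interval -7.95 to -6.56, adjusted p = 3.56e-06) and 139-fold lower in organoids from MaSCs (-7.12, -7.81 to -6.42, adjusted p = 3.27e-06).

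The other three H2-Aa probe sets gave differences of the same direction and of unequal size. Probe set 1452431_s_at read 3.31, 3.06 and 3.40 in organoids from yMaSCs, 3.0, 2.93 and 3.26 in organoids from MaSCs, and 10.99, 9.84 and 10.18 in LD cells, with differences of -7.08 in yMaSC organoids (adjusted p = 2.26e-06) and -7.27 in MaSC organoids (adjusted p = 1.75e-06). Probe set 1438858_x_at read 3.83, 3.91 and 4.0 in organoids from yMaSCs, 3.95, 4.0 and 3.59 in organoids from MaSCs, and 7.49, 9.32 and 7.15 in LD cells, with differences of -4.07 in yMaSC organoids (adjusted p = 0.000262) and -4.14 in MaSC organoids (adjusted p = 0.000227). Without LD sample B these were -3.41 in yMaSC organoids and -3.47 in MaSC organoids. LD sample B was the highest LD array here and in 1435290_x_at, but the lowest in 1452431_s_at. Probe set 1443783_x_at read 2.42, 2.31 and 2.45 in organoids from yMaSCs, 2.54, 2.24 and 2.16 in organoids from MaSCs, and 3.48, 5.38 and 2.78 in LD cells. All 6 organoid arrays and 2 of 3 LD arrays were under the lower quartile, while LD sample B was above the median, and its differences of -1.49 in yMaSC organoids (adjusted p = 0.0649) and -1.57 in MaSC organoids (adjusted p = 0.0523) were not called, although its groups did not overlap. Without LD sample B it was called at -0.74 in yMaSC organoids (adjusted p = 0.0294) and -0.82 in MaSC organoids (adjusted p = 0.0189), and without LD sample C at -2.04 in yMaSC organoids (adjusted p = 0.0134) and -2.12 in MaSC organoids (adjusted p = 0.0111). An ending in _x_at is given by the array maker to probe sets that may also bind other transcripts, and _s_at to those shared by several transcripts.

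H2-Ab1, the I-A beta chain (chromosome 17, 34263227 to 34269418, protein coding), was lower in both organoids too. Probe set 1450648_s_at read 5.63, 6.87 and 8.25 in organoids from yMaSCs, 6.32, 6.78 and 7.11 in organoids from MaSCs, and 10.74, 9.95 and 9.79 in LD cells. All 6 organoid arrays stood above the median of their own array, which lay between 5.11 and 5.15, and all stayed below the LD arrays. The difference was -3.24 in organoids from yMaSCs (95% interval -4.55 to -1.94, 9.47-fold lower, adjusted p = 0.00259) and -3.42 in organoids from MaSCs (-4.73 to -2.12, 10.7-fold lower, adjusted p = 0.00188). In yMaSC organoids it was -2.60 without sample A and -3.91 without sample C. Probe set 1451721_a_at read 5.0, 5.57 and 7.0 in organoids from yMaSCs, 4.81, 5.60 and 5.96 in organoids from MaSCs, and 9.42, 8.77 and 8.68 in LD cells, with differences of -3.10 in yMaSC organoids (adjusted p = 0.00149) and -3.50 in MaSC organoids (adjusted p = 0.000734). Probe set 1425477_x_at read 4.73, 4.98 and 5.79 in organoids from yMaSCs, 4.50, 4.88 and 5.31 in organoids from MaSCs, and 9.13, 8.03 and 8.37 in LD cells, with differences of -3.34 in yMaSC organoids (adjusted p = 0.000168) and -3.61 in MaSC organoids (adjusted p = 0.000104). In all 3 probe sets the highest organoid array was sample C from yMaSCs and the highest LD array was sample A. Of the 6 organoid arrays, 4 were above the median for 1451721_a_at and 2 for 1425477_x_at. No organoid array of H2-Ab1 fell under the lower quartile, which also held for H2-Eb1, Cd74 and H2-DMa 1422527_at. The SD between organoids from yMaSCs, at 1.31, 1.03 and 0.55, was above that between organoids from MaSCs, at 0.40, 0.59 and 0.41, in each of the 3 probe sets.

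H2-Eb1, the I-E beta chain (chromosome 17, 34305867 to 34316674, protein coding), was nearly flat among the organoids. Its probe set 1417025_at read 4.64, 4.68 and 4.73 in organoids from yMaSCs, 4.93, 4.67 and 4.68 in organoids from MaSCs, and 8.99, 8.78 and 8.39 in LD cells. The means were 4.68 ± 0.05 in organoids from yMaSCs, 4.76 ± 0.15 in organoids from MaSCs and 8.72 ± 0.30 in LD cells (SD, n = 3 each). The signal was 16.4-fold lower in organoids from yMaSCs (-4.04, 95% interval -4.39 to -3.69, adjusted p = 2.38e-06) and 15.6-fold lower in organoids from MaSCs (-3.96, -4.31 to -3.61, adjusted p = 2.64e-06).

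Cd74, the invariant chain (chromosome 18, 60803849 to 60812652, protein coding), followed the same order. Its probe set 1425519_a_at read 4.67, 4.65 and 4.86 in organoids from yMaSCs, 4.96, 4.68 and 4.87 in organoids from MaSCs, and 10.17, 9.46 and 9.53 in LD cells. The organoid values spanned 4.65 to 4.96 and the lowest LD array was at 9.46. Cd74 was 31.9-fold lower in organoids from yMaSCs than in LD cells (-4.99, 95% interval -5.42 to -4.57, adjusted p = 2.26e-06) and 29.5-fold lower in organoids from MaSCs (-4.88, -5.31 to -4.46, adjusted p = 2.38e-06).

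Ctss, the cysteine protease that trims the invariant chain (chromosome 3, 95526786 to 95556405, protein coding), had the widest spread among LD cells. Its probe set 1448591_at read 2.51, 2.51 and 2.83 in organoids from yMaSCs, 2.92, 2.62 and 3.0 in organoids from MaSCs, and 8.33, 8.29 and 5.78 in LD cells. All 6 organoid arrays were under the lower quartile of their array, and LD sample C stood well below the other LD samples but above every organoid. The difference was -4.85 in organoids from yMaSCs (95% interval -6.18 to -3.52, 28.8-fold lower, adjusted p = 0.000328) and -4.62 in organoids from MaSCs (-5.95 to -3.29, 24.6-fold lower, adjusted p = 0.000403), against an SD of 1.46 between the LD samples. Without LD sample C the difference was -5.69 in yMaSC organoids and -5.46 in MaSC organoids.

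H2-DMa, the alpha chain of the peptide exchanger (chromosome 17, 34119693 to 34139101, protein coding), differed least among the called genes. Its probe set 1422527_at read 6.25, 6.50 and 5.18 in organoids from yMaSCs, 6.17, 6.19 and 5.93 in organoids from MaSCs, and 7.39, 7.26 and 7.39 in LD cells. The lowest array was sample C from yMaSCs, the same array that was highest among organoids for H2-Ab1. The difference was -1.37 in organoids from yMaSCs (95% interval -2.03 to -0.71, 2.58-fold lower, adjusted p = 0.00661) and -1.25 in organoids from MaSCs (-1.91 to -0.59, 2.38-fold lower, adjusted p = 0.0101). The second probe set, 1459872_x_at, read 3.58, 3.24 and 3.51 in organoids from yMaSCs, 3.47, 3.22 and 3.51 in organoids from MaSCs, and 3.82, 3.51 and 3.90 in LD cells. Sample A from yMaSCs (3.58) lay above LD sample B (3.51), and sample C from MaSCs equalled it. Its differences of -0.30 in yMaSC organoids (adjusted p = 0.157) and -0.34 in MaSC organoids (adjusted p = 0.107) were not called. Without LD sample B the difference for organoids from MaSCs was -0.46 and was called (adjusted p = 0.0384).

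Ciita, the transactivator (chromosome 16, 10480014 to 10531064, protein coding), passed the test in none of its probe sets, and all 3 were below the median of every array. Probe set 1421210_at read 4.07, 4.07 and 3.97 in organoids from yMaSCs, 4.30, 4.07 and 4.05 in organoids from MaSCs, and 4.12, 4.07 and 4.07 in LD cells. Its difference was -0.05 in organoids from yMaSCs (95% interval -0.27 to 0.17, adjusted p = 0.744) and 0.05 in organoids from MaSCs (-0.17 to 0.28, adjusted p = 0.720). Probe set 1421211_a_at read 3.14, 3.66 and 3.58 in organoids from yMaSCs, 3.55, 3.28 and 3.52 in organoids from MaSCs, and 3.84, 3.50 and 4.06 in LD cells. Its difference was -0.34 in yMaSC organoids (95% interval -0.76 to 0.08, adjusted p = 0.199) and -0.35 in MaSC organoids (-0.77 to 0.07, adjusted p = 0.184). Probe set 1447075_at, under the lower quartile on all 9 arrays, read 2.79, 2.91 and 2.79 in organoids from yMaSCs, 2.79, 2.57 and 2.72 in organoids from MaSCs, and 2.79, 2.77 and 3.03 in LD cells, with differences of -0.03 in yMaSC organoids (adjusted p = 0.850) and -0.17 in MaSC organoids (adjusted p = 0.278). The groups overlapped in each. Differences of dim probe sets are understated, so the intervals bound the difference in probe signal, and a difference in Ciita RNA may not be detectable at this signal.

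**Figure D2:**
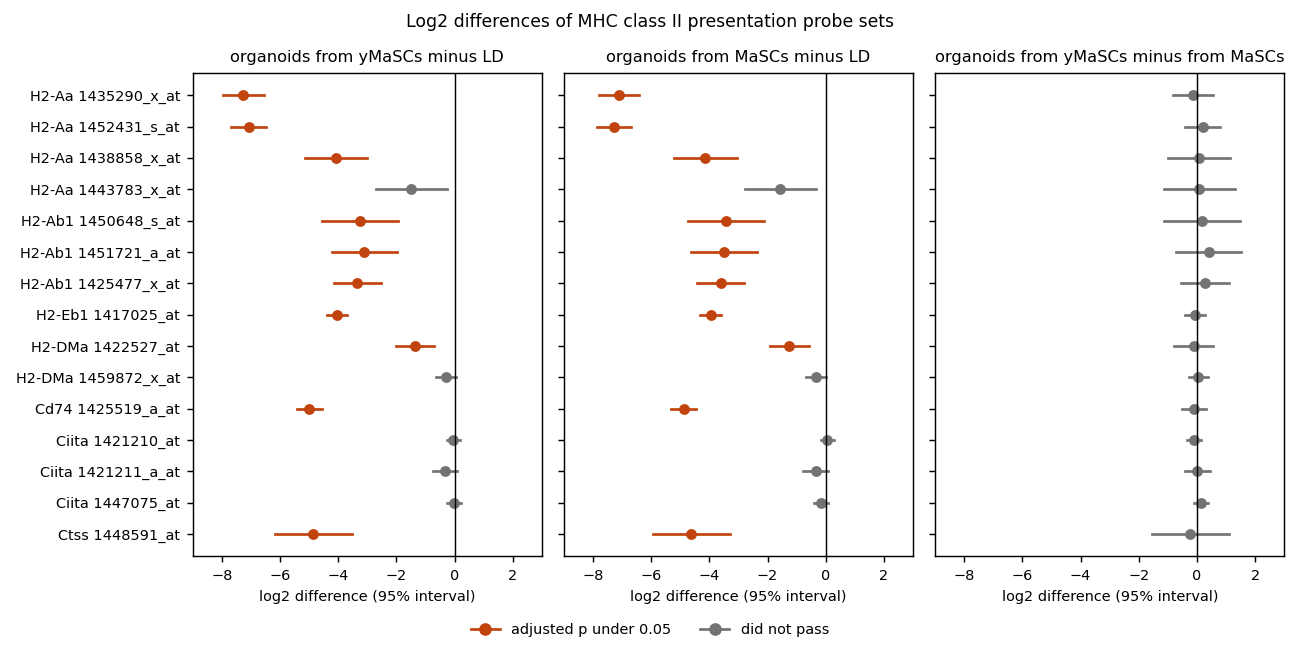
Log2 difference of each probe set (point) with its 95% interval (bar) for organoids from yMaSCs minus LD cells, organoids from MaSCs minus LD cells and organoids from yMaSCs minus organoids from MaSCs; orange marks adjusted p under 0.05 in the limma fit and grey marks the rest. Against LD cells 10 of 15 probe sets lie below 0 and pass in each comparison, with H2-Aa farthest out, and between the organoids all 15 lie between -0.23 and 0.40 and none passes.

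Between the 2 kinds of organoid, none of the 15 probe sets was called, as was none of all 45037 (0%). At an unadjusted p under 0.05 there were 0 member probe sets and 325 of all probe sets. The differences, organoids from yMaSCs minus organoids from MaSCs, ran from -0.23 for Ctss (95% interval -1.56 to 1.10) to 0.40 for H2-Ab1 1451721_a_at (-0.72 to 1.52), each with adjusted p = 1. The intervals were narrow for H2-Eb1 (-0.43 to 0.27) and Cd74 (-0.53 to 0.31) and wide for H2-Ab1 1450648_s_at (-1.12 to 1.48). A difference of 2-fold between organoids was thus outside the interval for H2-Eb1 and Cd74 but inside it for H2-Ab1 and Ctss. The fit shares 1 spread over the 3 groups, LD cells included, and does not pair organoids by letter. For Ctss the SD was 0.18 in yMaSC organoids, 0.20 in MaSC organoids and 1.46 in LD cells. Its interval therefore does not measure the spread between organoids alone. By letter its differences were -0.41 (A), -0.11 (B) and -0.17 (C). A p that misses the threshold does not show that the organoids were alike.

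Same-letter organoids showed where that width for H2-Ab1 lay. For 1450648_s_at, organoids from yMaSCs minus organoids from MaSCs was -0.69 at letter A, 0.09 at B and 1.14 at C. For 1451721_a_at it was 0.19, -0.03 and 1.04, and for 1425477_x_at 0.23, 0.10 and 0.48. Letter C thus carried the largest difference in all 3. Without sample C from yMaSCs the mean differences turned to -0.49, -0.17 and -0.04, none of them called. For H2-DMa 1422527_at letter C differed the other way, at -0.75, beside 0.08 at A and 0.31 at B. For Cd74 the differences by letter were -0.29, -0.03 and -0.01, and for H2-Eb1 -0.29, 0.01 and 0.05.

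Most of the other class II genes were lower too. Of 5 measured by their highest-mean probe set, 4 were called lower and 0 higher in each organoid comparison, with medians of -2.09 in organoids from yMaSCs and -2.17 in organoids from MaSCs, beside medians over all genes of -0.01 in yMaSC organoids and -0.02 in MaSC organoids. For this list and every list below, 14.0% of all genes were called lower in yMaSC organoids and 14.8% in MaSC organoids. The shares called higher were 21.3% in yMaSC organoids and 21.9% in MaSC organoids. H2-Ob, the beta chain of H2-O, which modulates H2-DM, read 2.47, 2.56 and 2.59 in organoids from yMaSCs, 2.66, 2.57 and 2.52 in organoids from MaSCs, and 7.16, 6.76 and 6.13 in LD cells (-4.14 in yMaSC organoids, adjusted p = 7.38e-06, and -4.10 in MaSC organoids, adjusted p = 7.02e-06). H2-Oa, its alpha chain, differed by -2.09 in yMaSC organoids (adjusted p = 5.05e-05) and -2.17 in MaSC organoids (adjusted p = 3.91e-05), and H2-DMb2, a beta chain of H2-DM, by -2.35 in yMaSC organoids (adjusted p = 6.65e-05) and -2.30 in MaSC organoids (adjusted p = 6.86e-05). H2-Eb2 read 5.52, 5.67 and 5.60 in organoids from yMaSCs, 5.60, 5.41 and 5.52 in organoids from MaSCs, and 5.73, 5.75 and 5.67 in LD cells, with differences of -0.12 in yMaSC organoids (adjusted p = 0.375) and -0.21 in MaSC organoids (adjusted p = 0.127). H2-DMb1 had no probe set of its own.

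H2-Ea, the I-E alpha chain, is annotated as a transcribed pseudogene in the reference strain, and C57BL/6 mice are known to carry a defective copy, so that no I-E reaches their cell surface. Its probe set 1422891_at read 6.68, 6.80 and 6.98 in organoids from yMaSCs, 6.74, 6.88 and 6.83 in organoids from MaSCs, and 8.83, 9.05 and 8.30 in LD cells, a difference of -1.91 in yMaSC organoids (adjusted p = 9.74e-05) and in MaSC organoids (adjusted p = 8.80e-05). Its probe set 1422892_s_at read 2.96, 3.38 and 3.50 in organoids from yMaSCs, 3.12, 3.07 and 3.06 in organoids from MaSCs, and 7.21, 7.71 and 6.77 in LD cells, with differences of -3.95 in yMaSC organoids (adjusted p = 9.42e-06) and -4.15 in MaSC organoids (adjusted p = 7.67e-06). The third, 1426202_at, was dim in every group and not called, at -0.19 in yMaSC organoids (adjusted p = 0.284) and -0.21 in MaSC organoids (adjusted p = 0.242). Whether other transcripts contributed to these signals was not tested.

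The machinery that class II shares with other tasks did not move as a block. Of 9 genes of endosomal processing, 4 were called higher and 1 lower in organoids from yMaSCs, and 3 higher and 0 lower in organoids from MaSCs, where 21.3% of all genes were called higher in yMaSC organoids and 21.9% in MaSC organoids. The list medians were 0.19 in yMaSC organoids and 0.09 in MaSC organoids. Ctsd, an aspartic protease of lysosomes, read 13.12, 12.83 and 12.43 in organoids from yMaSCs, 13.05, 12.92 and 12.84 in organoids from MaSCs, and 11.44, 11.48 and 11.68 in LD cells (1.26 in yMaSC organoids, adjusted p = 0.000589, and 1.40 in MaSC organoids, adjusted p = 0.000313), opposite in direction to Ctss. Ctsh was also higher (0.49 in yMaSC organoids, adjusted p = 0.0230, and 0.41 in MaSC organoids, adjusted p = 0.0463), Ctsc was higher in organoids from yMaSCs (0.58, adjusted p = 0.0259) and Ctsz lower there (-0.51, adjusted p = 0.0365).

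Of the 7 genes for the RFX, NF-Y and CREB proteins on which CIITA docks, 2 were called higher and 1 lower in both organoids, with medians of 0.12 in yMaSC organoids and 0.19 in MaSC organoids. These counts were near the shares over all genes, at 21.3% higher and 14.0% lower in yMaSC organoids and 21.9% higher and 14.8% lower in MaSC organoids. Rfxank, a subunit of RFX, was higher by 1.24 in organoids from yMaSCs (adjusted p = 0.00169) and by 1.12 in organoids from MaSCs (adjusted p = 0.00278). Rfx5, the subunit that binds the X box, read 8.22, 8.63 and 8.41 in organoids from yMaSCs, 8.31, 8.59 and 8.56 in organoids from MaSCs, and 9.30, 9.09 and 8.90 in LD cells (-0.68 in yMaSC organoids, adjusted p = 0.00788, and -0.61 in MaSC organoids, adjusted p = 0.0126). Creb1 was higher by 0.52 in yMaSC organoids (adjusted p = 0.0370) and 0.62 in MaSC organoids (adjusted p = 0.0171).

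Of 10 genes of interferon gamma signaling, the pathway that induces Ciita in many cells, 5 were called lower and 0 higher in both organoids, with medians of -0.64 in yMaSC organoids and -0.52 in MaSC organoids. Over all genes the share called lower was 14.0% in yMaSC organoids and 14.8% in MaSC organoids. Irf8, a transcription factor of myeloid and B cells, differed by -1.46 in yMaSC organoids (adjusted p = 0.000372) and -1.52 in MaSC organoids (adjusted p = 0.000281). The kinase genes Jak2 (-1.02 in yMaSC organoids, adjusted p = 0.000832, and -0.82 in MaSC organoids, adjusted p = 0.00262) and Jak1 (-0.60 in yMaSC organoids, adjusted p = 0.00227, and -0.55 in MaSC organoids, adjusted p = 0.00334) were lower by less. Irf1, a transcription factor induced by interferon that acts on a Ciita promoter, read 9.09, 9.09 and 9.18 in organoids from yMaSCs, 9.07, 9.03 and 9.17 in organoids from MaSCs, and 10.06, 9.84 and 10.01 in LD cells (-0.85 in yMaSC organoids, adjusted p = 0.000241, and -0.88 in MaSC organoids, adjusted p = 0.000189).

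MHC class I presentation, which displays peptides from the cytosol and is used by nearly all cells, differed by less than class II. Of its 16 genes, 6 were called lower and 1 higher in organoids from yMaSCs and 10 lower and 1 higher in organoids from MaSCs, with medians of -0.46 in yMaSC organoids and -0.64 in MaSC organoids. The class I heavy chain H2-K1 differed by -0.07 in yMaSC organoids (adjusted p = 0.779) and -0.20 in MaSC organoids (adjusted p = 0.364). H2-D1 was called lower in MaSC organoids (-0.47, adjusted p = 0.0361) but not in yMaSC organoids (-0.32, adjusted p = 0.137). The same held for B2m (-0.68, adjusted p = 0.0489 in MaSC and -0.32, adjusted p = 0.333 in yMaSC organoids). H2-M3 was called lower in both (-0.75 in yMaSC organoids, adjusted p = 0.00239, and -0.77 in MaSC organoids, adjusted p = 0.002). The immunoproteasome subunits Psmb9 (-1.25 in yMaSC organoids, adjusted p = 0.0446, and -1.62 in MaSC organoids, adjusted p = 0.0145) and Psmb8 (-1.16 in yMaSC organoids, adjusted p = 0.0184, and -1.48 in MaSC organoids, adjusted p = 0.00569) and the peptide trimmer Erap1 (-1.05 in yMaSC organoids, adjusted p = 0.0230, and -1.43 in MaSC organoids, adjusted p = 0.00505) were lower. Of the peptide transporter, Tap2 was called in both (-1.05 in yMaSC organoids, adjusted p = 0.000583, and -1.10 in MaSC organoids, adjusted p = 0.000445), and Tap1 in organoids from MaSCs (-1.43, adjusted p = 0.0115) but not in organoids from yMaSCs (-0.92, adjusted p = 0.0724). Sample C from yMaSCs, the highest organoid array for H2-Ab1, was also the highest organoid array for Psmb9 (8.75), Psmb8 (10.36), Erap1 (8.18) and Tap1 (7.94).

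Of 9 genes of costimulation and class II turnover, 5 were called lower and 1 higher in both organoids, with medians of -0.65 in yMaSC organoids and -0.55 in MaSC organoids. Icam1, an adhesion molecule of the contact with T cells, read 8.28, 7.09 and 7.59 in organoids from yMaSCs, 7.31, 7.13 and 8.21 in organoids from MaSCs, and 11.38, 11.22 and 11.16 in LD cells (-3.60 in yMaSC organoids, adjusted p = 8.84e-05, and -3.70 in MaSC organoids, adjusted p = 7.07e-05). Cd86, a ligand of CD28 on T cells, differed by -2.82 in yMaSC organoids (adjusted p = 0.000111) and -2.77 in MaSC organoids (adjusted p = 0.000112), and Cd40 by -1.28 in yMaSC organoids (adjusted p = 0.00794) and -1.39 in MaSC organoids (adjusted p = 0.00501). Cd274, which encodes PD-L1, differed by -1.05 in yMaSC organoids (adjusted p = 0.0466) and -1.57 in MaSC organoids (adjusted p = 0.00780). Marchf8, a membrane ubiquitin ligase that can remove class II from the surface, was the gene called higher, at 1.25 in yMaSC organoids (adjusted p = 6.14e-05) and 1.26 in MaSC organoids (adjusted p = 5.50e-05).

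**Figure D3:**
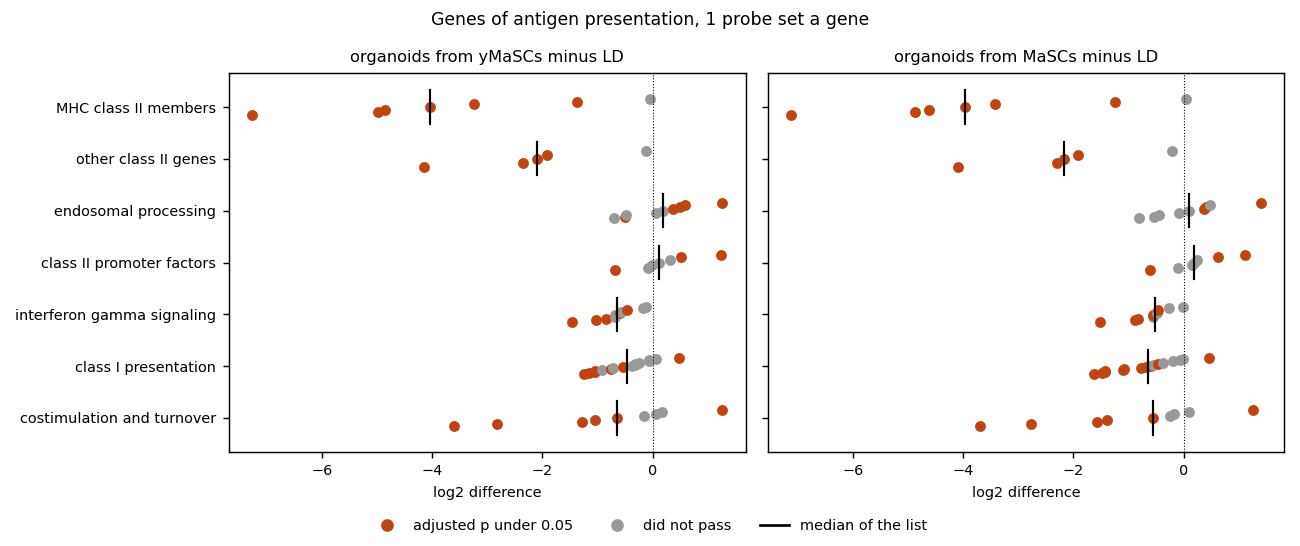
Log2 difference of each gene (point, highest-mean probe set) in 7 lists of antigen presentation, for organoids from yMaSCs minus LD cells (left) and organoids from MaSCs minus LD cells (right); orange marks adjusted p under 0.05, grey marks the rest and the black tick is the list median. The medians of the members (-4.04 left, -3.96 right) and of the other class II genes (-2.09 left, -2.17 right) lie far left of those of the remaining lists, which lie between -0.65 and 0.19.

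Markers of leukocytes, whose dendritic cells, B cells and macrophages carry class II, differed between organoids and LD cells in the same direction as the members. Of 8 pan-leukocyte markers, 7 were called lower in both organoids, and their summed log2 level ranged over 34.2 to 36.2 in organoids from yMaSCs, 34.2 to 35.2 in organoids from MaSCs and 55.2 to 59.2 in LD cells. Ptprc, which encodes the pan-leukocyte protein CD45, read 2.64, 2.86 and 2.99 in organoids from yMaSCs, 2.82, 2.98 and 2.70 in organoids from MaSCs, and 8.94, 8.49 and 8.17 in LD cells (difference -5.70 in yMaSC organoids, adjusted p = 1.61e-06, and -5.70 in MaSC organoids, adjusted p = 1.33e-06). Among the LD arrays the summed pan-leukocyte level was 59.2 in A, 58.4 in B and 55.2 in C, and the median over the 15 member probe sets was 8.33 in A, 8.29 in B and 7.39 in C. Sample C was thus lowest in both. The member median in A and in B was the Ctss value itself, so Ctss is no separate case of this order. In C, where Ctss read 5.78, the median was the value of H2-DMa 1422527_at, which read 7.39 in A as well. The lower member median in C therefore rests on the change of rank of Ctss. By single member probe sets the lowest LD sample varied. It was B for Cd74 1425519_a_at (9.46) and H2-DMa 1422527_at (7.26). It was C for H2-Eb1 1417025_at (8.39) and Ctss 1448591_at (5.78). The part of leukocytes in the class II signal of LD cells was not tested.

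The lists of single leukocyte types moved in the same direction. Of 12 macrophage and monocyte markers 7 were called lower in both organoids, and the summed level was 47.0 to 49.9 in organoids from yMaSCs, 46.8 to 47.3 in organoids from MaSCs and 53.5 to 63.6 in LD cells. Of 8 dendritic markers 4 were called lower in organoids from yMaSCs and 5 in organoids from MaSCs, with sums of 34.0 to 34.8 in yMaSC organoids, 33.6 to 34.2 in MaSC organoids and 40.5 to 41.9 in LD cells. Of 7 B cell markers 5 were called lower in both, with sums of 31.8 to 33.4 in organoids from yMaSCs, 32.6 to 33.3 in organoids from MaSCs and 41.5 to 47.3 in LD cells. Of 8 T and NK cell markers 5 were called lower in both, with sums of 29.3 to 29.7 in yMaSC organoids, 30.0 to 30.2 in MaSC organoids and 35.8 to 38.0 in LD cells. No gene of these lists was called higher. Cd68 of the macrophage list was not called (-1.01 in yMaSC organoids, adjusted p = 0.29, and -1.93 in MaSC organoids, adjusted p = 0.0523). It read 7.41 in sample C from yMaSCs, above the LD arrays at 7.05, 7.35 and 6.30.

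Single markers of the leukocyte types that carry class II differed by unequal amounts. The B cell gene Ms4a1, which encodes CD20, read 3.32, 3.35 and 3.42 in organoids from yMaSCs, 3.71, 3.33 and 3.28 in organoids from MaSCs, and 7.80, 8.14 and 7.0 in LD cells (-4.28 in yMaSC organoids, adjusted p = 1.18e-05, and -4.21 in MaSC organoids, adjusted p = 1.12e-05). Cd79b, a chain of the B cell receptor complex, differed by -3.34 in yMaSC organoids (adjusted p = 9.02e-05) and -3.46 in MaSC organoids (adjusted p = 7.01e-05). In the dendritic list the chemokine receptor gene Ccr7, which T cells also use, read 3.42, 3.52 and 3.75 in organoids from yMaSCs, 3.42, 3.24 and 3.07 in organoids from MaSCs, and 8.17, 7.56 and 7.15 in LD cells (-4.06 in yMaSC organoids, adjusted p = 9.42e-06, and -4.38 in MaSC organoids, adjusted p = 7.01e-06). Ms4a1 and Ccr7 thus differed about as much as H2-Eb1, and their organoid and LD arrays did not overlap. They had the largest differences of their lists and were named after their values were seen. Other genes of these lists differed less. Cd79a differed by -1.08 in yMaSC organoids and -1.06 in MaSC organoids. Not called were Pax5 (0.03 in yMaSC and -0.14 in MaSC organoids), Ighm (-0.38 and -0.53) and the dendritic gene Xcr1 (-0.02 and -0.04). The macrophage gene Csf1r read 5.48, 5.58 and 5.44 in organoids from yMaSCs, 5.31, 5.42 and 5.55 in organoids from MaSCs, and 7.06, 6.37 and 5.86 in LD cells. Adgre1 read 4.09, 4.10 and 4.02 in organoids from yMaSCs, 3.81, 3.97 and 4.16 in organoids from MaSCs, and 4.97, 4.62 and 4.26 in LD cells. Both macrophage genes were called lower in each comparison, with adjusted p between 0.0147 and 0.0407, and both were highest in LD sample A and lowest in LD sample C, as the pan-leukocyte sum was. The T cell gene Cd3e read 5.50, 5.35 and 5.48 in organoids from yMaSCs, 5.55, 5.66 and 5.50 in organoids from MaSCs, and 5.76, 6.32 and 5.99 in LD cells (-0.58 in yMaSC organoids, adjusted p = 0.0131, and -0.45 in MaSC organoids, adjusted p = 0.0374). Another gene of the dendritic list, Itgax, at 3.88 on each array from yMaSCs, 3.77, 3.88 and 3.73 in organoids from MaSCs, and 3.97, 3.77 and 4.29 in LD cells, was not called (-0.13 in yMaSC organoids, adjusted p = 0.504, and -0.22 in MaSC organoids, adjusted p = 0.253).

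Of 8 luminal markers, 6 were called lower and 1 higher in both organoids than in LD cells. Epcam read 13.01, 12.98 and 13.02 in organoids from yMaSCs, 12.95, 13.05 and 12.99 in organoids from MaSCs, and 13.68, 13.70 and 13.60 in LD cells, and was thus high in all 3 groups. Gata3, a transcription factor of luminal cells, was the gene called higher (1.25 in yMaSC organoids, adjusted p = 0.000232, and 1.52 in MaSC organoids, adjusted p = 7.87e-05). The basal keratin gene Krt5 read 8.45, 7.85 and 9.05 in organoids from yMaSCs, 7.82, 7.79 and 9.96 in organoids from MaSCs, and 6.25, 5.73 and 5.69 in LD cells. LD sample B stood apart in other cell types. Its endothelial sum over 5 markers was 28.7, whereas LD sample A had 18.2 and LD sample C 19.0. Its fibroblast sum over 6 markers was 47.6, with 39.5 in sample A and 37.1 in sample C. Without LD sample B the count of member probe sets called lower was 11 of 15 in organoids from yMaSCs and 12 of 15 in organoids from MaSCs.

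**Figure D4:**
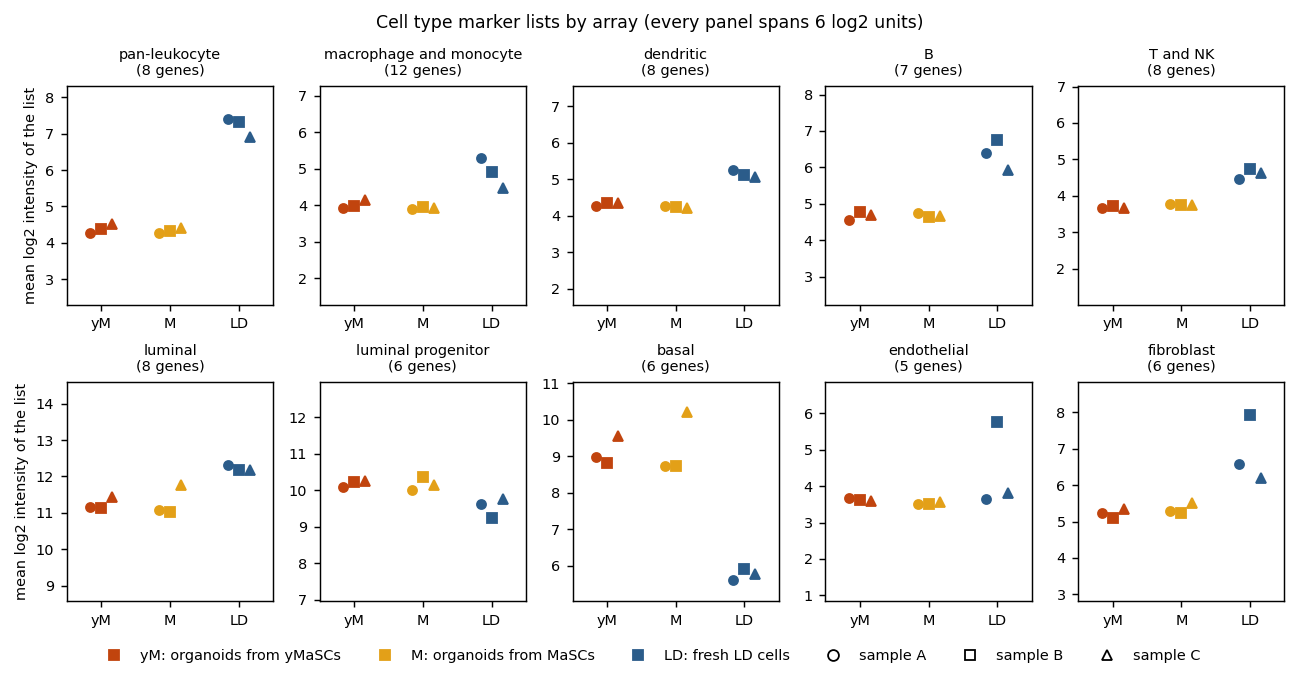
Mean log2 intensity of the genes of 10 marker lists on each array, with organoids from yMaSCs (yM) left, organoids from MaSCs (M) in the middle and LD cells (LD) right; each symbol is 1 array, its shape gives the letter, and every panel spans 6 log2 units. The pan-leukocyte mean lies between 4.27 and 4.53 in the organoids and between 6.90 and 7.41 in LD cells, and LD sample B stands above the other LD samples in the endothelial and fibroblast panels.

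Among 4463 genes whose SD over the 9 arrays was at least 0.5, the 5 most like the mean profile of H2-Aa, H2-Ab1 and H2-Eb1 by Pearson r over the 9 arrays were Stk40 (0.997), Kdm6b (0.996), Smad3 (0.995), Bex4 (0.995) and Ptprc (0.995). Because the arrays fall into organoids and LD cells, such an r mainly describes that step, and the 9 points share their array's normalization. The sizes of the step differed. Kdm6b, a histone demethylase, differed by -2.66 in organoids from yMaSCs and -2.51 in organoids from MaSCs, whereas the difference of Smad3, a transcription factor of TGF-beta signaling, was -1.95 in yMaSC organoids and -1.94 in MaSC organoids, and that of Ptprc was -5.70 in both. Against the same profile, Cd74 had r of 0.992, Ctss 0.972 and H2-DMa 0.824 by 1422527_at, while the Ciita probe sets had -0.039, 0.644 and 0.359.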

How the data were processed

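Total RNA of 9 samples was hybridised as biotinylated cRNA to Affymetrix mouse arrays. The authors deposited RMA log2 values, which are background corrected, quantile normalized and summarised per probe set by the usual RMA steps. No source used here names the version of RMA. The deposited table had 45101 probe sets, and 64 controls among them were left out. By the array annotation 34945 of the rest name 1 gene, 932 several and 9160 none, and positions and promoters came from RefSeq on GRCm38.p6. RMA sets low signals close to a floor, so that differences of dim probe sets are understated, and the number of arrays limits the precision.

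The values were fitted as deposited in limma 3.58.1 (R 4.3.3) with 3 groups, no block and no filter on low values. P-values were adjusted by Benjamini-Hochberg over all 45037 probe sets and called under 0.05, and the test was checked on simulated data. Where 1 value a gene was needed, the probe set with the highest mean was read. Summaries used Python 3.11.15. Column values belonging to other samples numbered 0.

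Deviations of same-letter samples from their group means correlated between the 2 kinds of organoid (r of 0.554, 0.523 and 0.612 for A, B and C) and not between organoids and LD cells (-0.07 to 0.026). The letters were therefore read as pairing the organoids only, and labels do not say what a letter shares.

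The members, lists and motifs were chosen with earlier results of these data known. Named are all 7 members with every probe set, and the 5 genes most like H2-Aa, H2-Ab1 and H2-Eb1. Each pathway list gives up to 4 called genes with the largest absolute difference, and always H2-Ea. Tap1, H2-K1, H2-D1, H2-M3, B2m and H2-Eb2 were added after their values were seen. Of the markers, Ptprc, Csf1r, Adgre1, Cd3e and Itgax are given by value. Ms4a1, Cd79a, Cd79b, Pax5, Ighm, Ccr7, Xcr1, Cd68, Epcam, Gata3 and Krt5 were added likewise. Alternatives changed the normalization, filter, prior, weights, block, probe set summary, fold limit and arrays.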

Additional observations from a re-analysis of the deposited data

How the results depend on the processing

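Every member probe set called against LD cells was called in the same direction under each alternative that kept it, and the count of genes called was 6 of 7 in all of them except the filter above the median level, where 5 of 5 remaining genes were called. With 1 probe set a gene and with the mean of all probe sets of a gene, the count called was 6 in both comparisons, in place of 10. The members then made up 7 features among all genes tested. With the letter as replicate block 11 of 15 were called in both comparisons with LD cells, H2-DMa 1459872_x_at being added (adjusted p = 0.0426 in organoids from yMaSCs and 0.0253 in organoids from MaSCs), and 0 between organoids, also in the organoids alone. The random block (correlation 0.076) and array weights each gave 11 in organoids from MaSCs, adding H2-Aa 1443783_x_at (adjusted p = 0.0444 and 0.0481). The largest change of a called value was in H2-Aa 1435290_x_at, at -4.97 in organoids from yMaSCs and -5.02 in organoids from MaSCs with the mean of its probe sets, which includes the dim ones.

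Signs turned only for values that no alternative called. In organoids from yMaSCs minus LD cells, Ciita 1421210_at was 0.03 with cyclic loess and 0.01 with quantile normalization, and Ciita 1447075_at was 0.03 and 0.02, with -0.08 to 0.05 over single arrays left out. In organoids from MaSCs minus LD cells, Ciita 1421210_at was -0.16 with the mean of probe sets and -0.03 to 0.10 over single arrays left out. In organoids from yMaSCs minus organoids from MaSCs, the mean of probe sets gave 0.01 for Ciita 1421210_at and 0.05 for H2-Aa 1435290_x_at. Array weights gave -0.01 for Ciita 1421211_a_at, 0.07 for H2-DMa 1422527_at, -0.02 for H2-Aa 1438858_x_at and -0.02 for H2-Aa 1443783_x_at. Without both organoids C these 4 were -0.01, 0.20, -0.10 and -0.02, and H2-Ab1 1450648_s_at was -0.30. Over single arrays left out the same difference ran from -0.12 to 0.01 for H2-Eb1, -0.09 to 0.17 for Ciita 1421211_a_at, -0.38 to 0.28 for H2-DMa 1422527_at, -0.05 to 0.14 for H2-DMa 1459872_x_at, -0.49 to 0.82 for H2-Ab1 1450648_s_at, -0.17 to 0.83 for H2-Ab1 1451721_a_at, -0.04 to 0.49 for H2-Ab1 1425477_x_at, -0.26 to 0.05 for H2-Aa 1435290_x_at and -0.06 to 0.14 for H2-Aa 1438858_x_at. The cause of these turns was not tested. Low signal limits the 3 Ciita probe sets and H2-DMa 1459872_x_at, which lay below the median on all 9 arrays, and H2-Aa 1443783_x_at, which did so on all but LD sample B.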

Other observations

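Probe sets that the annotation gives to several genes at once belong to no gene above, and their values follow. The 2 probe sets shared by H2-DMb1 and H2-DMb2, beta chains of H2-DM, were lower than in LD cells in both organoids: 1418638_at differed by -0.55 in organoids from yMaSCs (adjusted p = 0.00590) and -0.46 in organoids from MaSCs (adjusted p = 0.0138), and 1449580_s_at by -0.74 in organoids from yMaSCs (adjusted p = 0.00160) and -0.70 in organoids from MaSCs (adjusted p = 0.00201). The 2 probe sets shared by H2-T23, a nonclassical class I gene, and the pseudogene H2-T-ps were higher in organoids. Of these 1419658_at read 7.35, 7.77 and 7.66 in organoids from yMaSCs, 7.84, 7.78 and 7.07 in organoids from MaSCs, and 5.13, 6.62 and 5.21 in LD cells (a difference of 1.94 in organoids from yMaSCs, adjusted p = 0.00464, and 1.91 in organoids from MaSCs, adjusted p = 0.00485), and 1449556_at differed by 1.44 in organoids from yMaSCs (adjusted p = 0.0146) and 1.33 in organoids from MaSCs (adjusted p = 0.0205). Their direction was opposite to that of most called class I genes with a probe set of their own, of which 6 of 16 were called lower and 1 higher in organoids from yMaSCs, and 10 of 16 lower and 1 higher in organoids from MaSCs.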
